A study of Homo sapiens with 6 samples.

Results

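NRF2, encoded by NFE2L2, is the transcription factor that controls the cell's antioxidant genes. KEAP1 binds it in the cytoplasm and presents it to a cullin ubiquitin ligase for destruction. Oxidants and electrophiles modify cysteines of KEAP1, NRF2 then escapes destruction, pairs with a small MAF protein in the nucleus and binds antioxidant response elements near its target genes. Because this control acts mainly on the protein, the RNA of NFE2L2 itself need not change when the pathway is active, and the RNA of its targets is the usual readout.

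The genes described here are the 9 rows of the deposited table whose symbol is NFE2L2, KEAP1, GCLC, GCLM, SLC7A11, TXNRD1, SRXN1, NQO1 or HMOX1, out of 61806 genes. They were chosen by name, as the activator, its inhibitor and 7 standard targets. Earlier results of these data were known at that time, so the choice was not blind. The RNA came from 293T cells, a human line of embryonic kidney origin labelled as epithelial, transfected with a lipid reagent. Cells received a plasmid labelled GFP-812 in 3 libraries and a plasmid labelled GFP in 3 libraries, with no other treatment given in the labels, and neither group was left untransfected. The series title concerns truncated NEK1. The labels do not state the plasmids' promoters or the share of cells that took them up, and are silent on whether the 3 libraries of each group were separate cultures. The p-values below therefore reflect variation among libraries only, and that variation may be technical.

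Total counts were 14255148 to 17613814 in GFP-812 libraries and 16061389 to 16144531 in GFP libraries. NEK1, the gene named in the title, was at 493.72 to 562.73 FPKM in GFP-812 libraries, against 3.82 to 3.99 FPKM in GFP libraries. FPKM is the read count per kilobase of exon and per 1000000 counts of the library. Epithelial keratins KRT8 and KRT18 were present, at 10.5 and 15.4 FPKM in GFP-812 cells and 9.53 and 14.7 FPKM in GFP cells, while KRT19 (0.117 FPKM in GFP-812 cells and 0.243 FPKM in GFP cells) and the epithelial adhesion genes CDH1 and EPCAM (at most 1.03 FPKM) were low in both groups. The highest of the 10 markers of the line were the mesenchymal filament gene VIM, at 119.9 and 119.1 FPKM, and the neurofilament genes NEFM, at 68.2 and 56.0 FPKM, and NEFL, at 33.3 and 29.8 FPKM, in GFP-812 and GFP cells. Of 15 markers of leukocytes, endothelium, fibroblasts, erythroid cells and hepatocytes 1 reached a mean of 1 FPKM, and their summed level was 3.06 to 3.33 FPKM in GFP-812 libraries and 2.53 to 3.3 FPKM in GFP libraries. The number of genes called depended on single libraries. With all 6 libraries edgeR called 647 of 16834 genes tested, and without GFP replicate 3 it called 1317. Leaving out any other library gave 209 to 475. Whether GFP replicate 3 differed from the other GFP libraries more than they differed from each other was not tested.

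The element that NRF2 and small MAF proteins bind has the core TGACNNNGC, where N is any base. The promoters held in RefSeq on GRCh38.p14, from 250 bases before to 50 bases after each annotated start, were searched for it on both strands. They matched 7 of the 9 genes by symbol, with 10 promoters in all; SLC7A11 and HMOX1 had no entry. The core was present in 4 of these 10 promoters, against 13.4% of all 35116 promoters. Counted by gene it was present in 3 of 7, against 4384 of 27305. The matches are shown because they are the sequences through which the activator is known to reach such genes, with the core in capitals and 15 bases on each side, 5′ to 3′ on the gene's own strand. GCLM, chr1:93909441-93909479, minus strand, with the core on the opposite strand 34 bases before the start, is followed by TXNRD1, chr12:104215665-104215703, chr12:104215756-104215794 and chr12:104286915-104286953, plus strand, with cores 99 and 8 bases before its first start and 102 bases before a second start. KEAP1, chr19:10502779-10502840, minus strand, holds a pair of cores 54 and 31 bases before its inner start.
GCLM: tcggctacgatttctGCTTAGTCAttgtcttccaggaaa
TXNRD1 at 99 bases: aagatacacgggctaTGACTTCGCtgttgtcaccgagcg
TXNRD1 at 8 bases: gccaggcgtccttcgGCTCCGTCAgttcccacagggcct
TXNRD1 at 102 bases: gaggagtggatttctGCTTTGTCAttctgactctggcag
KEAP1: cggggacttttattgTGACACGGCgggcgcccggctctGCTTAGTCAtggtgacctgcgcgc
GCLM and the inner KEAP1 start carry the same 9 bases, GCTTAGTCA. None of these matches overlapped the AP-1 core TGANTCA, which is a related sequence. The promoters of NFE2L2, GCLC, NQO1 and SRXN1 did not hold the core within these windows. A match describes the letters and is not a measured binding site; no binding was measured here.

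All 9 genes had enough counts to be tested. Of the 9, 1 fell in GFP-812 cells, 0 rose and 8 did not pass, by edgeR's quasi-likelihood test with Benjamini-Hochberg adjustment across the 16834 genes tested and a threshold of 0.05; among those genes 3.84% were called, 1.18% as risen and 2.67% as fallen. The gene that fell was SLC7A11, the cystine importer. At an unadjusted p under 0.05 there were 4 of the 9, NFE2L2, GCLC, SLC7A11 and HMOX1, against 16.1% of all genes tested. The FPKM of the groups did not overlap for 3 of the 9, NFE2L2, SLC7A11 and HMOX1, against 20.1% of all genes tested. The log2 fold changes, GFP-812 over GFP, ran between -0.19 and 0.28 with a median absolute value of 0.11, against 0.10 for all genes tested. No direction was shared: 4 of the 9 were above 0 and 5 below.

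**Figure D1:**
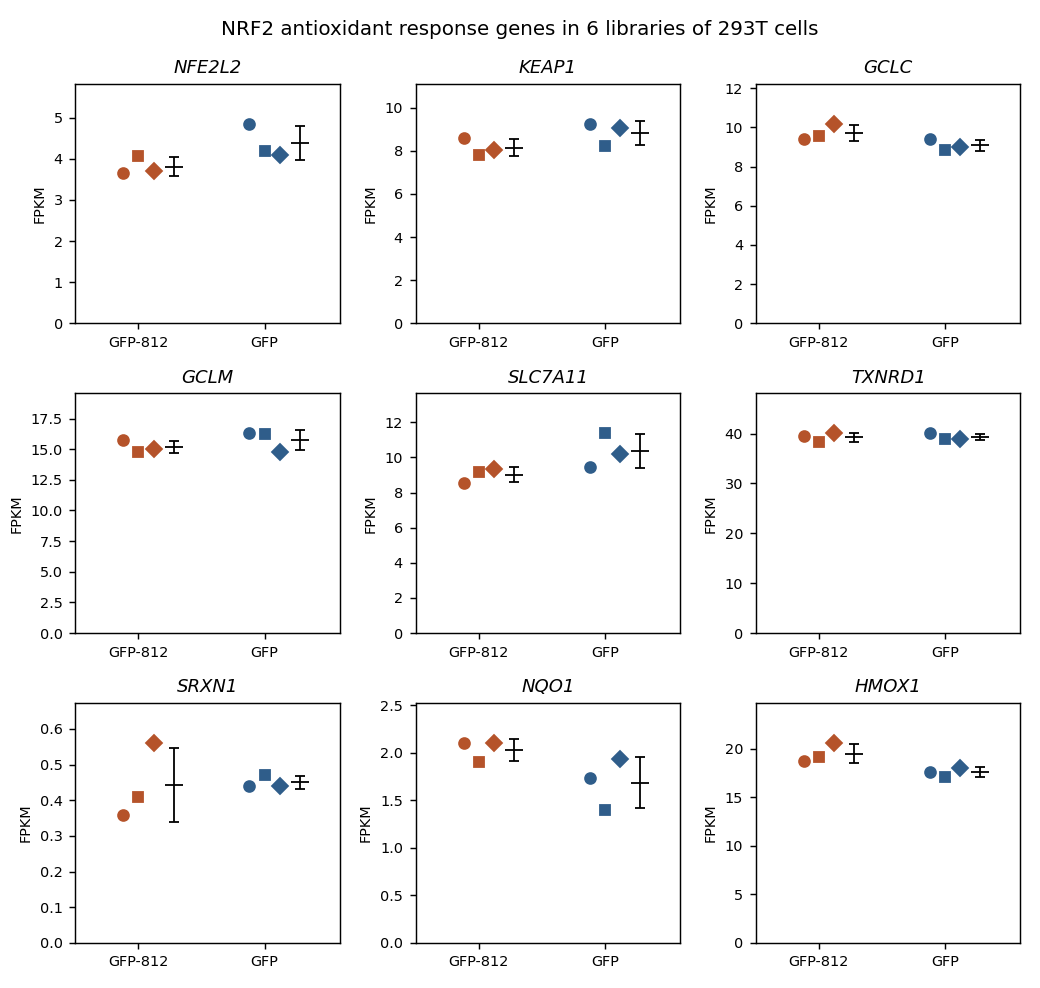
Level of each gene in FPKM (y axis, starting at 0) in the GFP-812 and GFP libraries; circles, squares and diamonds are replicates 1, 2 and 3 and the bar beside them is the mean ± SD (n = 3). NFE2L2 and SLC7A11 lie lower in every GFP-812 library than in any GFP library, HMOX1 lies higher, and the groups of the other 6 genes overlap.

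The levels of the 9 genes spanned a wide range and kept nearly the same order in both groups. TXNRD1, at 39.3 FPKM in both groups, was highest and exceeded the level of 94.3% of tested genes in GFP cells. HMOX1, GCLM and then SLC7A11, GCLC and KEAP1 followed, and NFE2L2, NQO1 and SRXN1 were lowest, SRXN1 exceeding only 13.7% of tested genes. Within GFP-812 cells the ranges of SLC7A11 and KEAP1 overlapped, and within GFP cells those of GCLC and KEAP1 overlapped; the ranges of all other neighbours in the order were separate. GCLC stood above SLC7A11 in GFP-812 cells and below it in GFP cells. The summed level of the 7 targets was 94.44, 93.15 and 97.82 FPKM in GFP-812 libraries and 94.99, 94.33 and 93.28 FPKM in GFP libraries, so the groups overlapped. In bulk RNA such levels are means over all cells, and fewer cells with the RNA cannot be told apart from less RNA per cell.

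NFE2L2 (ENSG00000116044, hg38 chromosome 2, 177218667 to 177392756, minus strand), the activator, was at 3.65, 4.08 and 3.7 FPKM in GFP-812 libraries and at 4.86, 4.19 and 4.1 FPKM in GFP libraries. The groups were separate by a narrow margin, with GFP-812 replicate 2 just under GFP replicate 3, and GFP replicate 1 was the highest of the 6. The means were 3.81 ± 0.235 FPKM in GFP-812 cells and 4.38 ± 0.415 FPKM in GFP cells (SD, n = 3 each). This is a log2 fold change of -0.19 (SE 0.0637, 95% interval -0.32 to -0.06), and it did not pass (edgeR adjusted p = 0.0805). Without GFP replicate 3 it passed, at -0.24 (adjusted p = 0.013), and without GFP replicate 1 it was -0.11 (adjusted p = 0.548).

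The row of NFE2L2 carries 14975 exonic bases in the deposited table, against 5979 exonic bases in GENCODE 29 on the same build. FPKM is divided by that length, so the place of NFE2L2 in the order of levels may depend on the annotation; its count over the shorter exon set was not analysed here. In GENCODE 29 its exons share 1054 bases with ENSG00000213963, a row of 137 to 183 counts on the same strand, and 54 bases with AGPS on the other strand. The sources used here do not state how the counting treated such shared bases or whether it used strand.

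KEAP1 (ENSG00000079999, chromosome 19, 10486125 to 10503558, minus strand), the inhibitor, was at 8.58, 7.83 and 8.04 FPKM in GFP-812 libraries and at 9.27, 8.21 and 9.06 FPKM in GFP libraries. The groups overlapped: GFP-812 replicate 1 lay above GFP replicate 2. Its log2 fold change was -0.11 (95% interval -0.27 to 0.05, edgeR adjusted p = 0.537). The NFE2L2 to KEAP1 ratio of FPKM, which does not depend on library scaling, was 0.425, 0.521 and 0.46 in GFP-812 libraries and 0.524, 0.51 and 0.453 in GFP libraries. These ratios overlapped throughout. Their mean log2 difference was -0.08, with p = 0.6 in the exact 2-sided permutation test, which cannot go below 0.1 with 3 libraries against 3.

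Among the glutathione genes, SLC7A11 was lower in GFP-812 cells while the subunits of glutamate-cysteine ligase did not pass. SLC7A11 (ENSG00000151012, chromosome 4, 138164097 to 138242349, minus strand) encodes xCT, the light chain of the transporter that brings in cystine in exchange for glutamate and so supplies the cysteine of glutathione. It was at 8.56, 9.15 and 9.37 FPKM in GFP-812 libraries and at 9.46, 11.37 and 10.21 FPKM in GFP libraries. The groups were separate by 0.09 FPKM between GFP-812 replicate 3 and GFP replicate 1, and the GFP group was the more spread, with replicate 2 highest.

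Mean SLC7A11 was 9.03 ± 0.419 FPKM in GFP-812 cells and 10.3 ± 0.962 FPKM in GFP cells (SD, n = 3 each). It fell by 0.18 on the log2 scale (SE 0.0553, 95% interval -0.29 to -0.07), to 0.881 of the GFP level, with an edgeR adjusted p of 0.0469. This lay just inside the threshold. Dropping any single GFP-812 library ended the call, with log2 fold changes of -0.15, -0.19 and -0.21 and adjusted p-values of 0.197, 0.172 and 0.0888 for replicates 1, 2 and 3. Dropping replicate 2 of GFP ended it too (-0.11, adjusted p = 0.341), while it held on dropping replicate 1 of GFP (-0.24, 0.0175) or replicate 3 of GFP (-0.19, 0.0218). It was also lost with DESeq2 (-0.18, adjusted p = 0.0629), with genes limited to a mean of at least 1 FPKM (-0.175, 0.0526) and with limma on log2(FPKM + 1) (-0.18, 0.277). That limma fit called 3 genes in the whole table. The antisense row SLC7A11-AS1, which shares 865 exonic bases with SLC7A11 in GENCODE 29, held 1 to 8 counts per library.

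SLC3A2, the heavy chain that carries xCT to the cell surface, was at 25.44, 27.19 and 25.79 FPKM in GFP-812 libraries and at 29.58, 28.64 and 28.77 FPKM in GFP libraries. All 3 GFP-812 values were below all 3 GFP values, yet the gene did not pass (log2 fold change -0.14, edgeR adjusted p = 0.0619). DESeq2 did call it (-0.14, adjusted p = 0.0416), as did edgeR with total-count scaling (-0.15, 0.0308) or without GFP replicate 3 (-0.14, 0.0268).

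GCLC (ENSG00000001084, chromosome 6, 53497341 to 53616970, minus strand) encodes the catalytic subunit of glutamate-cysteine ligase, the rate-limiting step of glutathione synthesis. It was at 9.39, 9.55 and 10.2 FPKM in GFP-812 libraries and at 9.39, 8.83 and 9.02 FPKM in GFP libraries. The groups met at the same value, in replicate 1 of each. With a log2 fold change of 0.11 (SE 0.0543, 95% interval 0.0017 to 0.22) it did not pass (edgeR adjusted p = 0.299).

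GCLM (ENSG00000023909, chromosome 1, 93885199 to 93909456, minus strand), the modifier subunit that raises the activity of GCLC, was at 15.72, 14.76 and 14.99 FPKM in GFP-812 libraries and at 16.29, 16.2 and 14.8 FPKM in GFP libraries. GFP replicate 3 lay among the GFP-812 values. Its log2 fold change was -0.04 (95% interval -0.15 to 0.06, edgeR adjusted p = 0.747). The GCLC to GCLM ratio was 0.597, 0.647 and 0.68 in GFP-812 libraries and 0.576, 0.545 and 0.609 in GFP libraries, with GFP replicate 3 above GFP-812 replicate 1. Its mean log2 difference was 0.15 with p = 0.2 in the exact 2-sided permutation test.

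Of the thioredoxin genes neither passed, one measured closely and the other hardly at all. TXNRD1 (ENSG00000198431, chromosome 12, 104215779 to 104350307, plus strand), the cytosolic selenoenzyme that reduces thioredoxin with NADPH, was at 39.57, 38.25 and 40.02 FPKM in GFP-812 libraries and at 40.03, 38.97 and 38.82 FPKM in GFP libraries. These values interleaved, and their spread was the smallest of the 9 genes, with coefficients of variation of 2.34% in GFP-812 cells and 1.68% in GFP cells. The difference was 0.01 on the log2 scale and its 95% interval ran from -0.07 to 0.09 (edgeR adjusted p = 0.919). The ribosomal protein pseudogene RPL18AP3, with 607 to 799 counts, lies in the span of TXNRD1 on the same strand and shares none of its exonic bases in GENCODE 29.

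SRXN1 (ENSG00000271303, chromosome 20, 646615 to 653200, minus strand) encodes sulfiredoxin, which restores overoxidised peroxiredoxins. It had only 13, 16 and 25 counts in GFP-812 libraries and 18, 19 and 18 counts in GFP libraries, or 0.36 to 0.56 FPKM in GFP-812 cells and 0.44 to 0.47 FPKM in GFP cells. The GFP-812 values spanned those of GFP. On the log2 scale the difference was near 0, with a 95% interval from -0.77 to 0.77 (edgeR adjusted p = 1), so a difference of the size seen in the other 8 genes was not detectable at this depth. In GENCODE 29 the row ENSG00000270299, with 0 to 4 counts, shares 2292 of its 2698 exonic bases, so reads of SRXN1 may have been left out of its count.

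NQO1 and HMOX1, which deal with quinones and heme, had higher mean levels in GFP-812 cells, and neither passed. NQO1 (ENSG00000181019, chromosome 16, 69706996 to 69726668, minus strand), a quinone reductase often used as the readout of NRF2, was at 2.1, 1.9 and 2.1 FPKM in GFP-812 libraries and at 1.73, 1.4 and 1.93 FPKM in GFP libraries. GFP replicate 3 lay above GFP-812 replicate 2. Its log2 fold change of 0.28 was the largest in absolute size of the 9, and its SE of 0.176 was large too (95% interval -0.07 to 0.63, edgeR adjusted p = 0.444). It rested on 88 to 110 counts per GFP-812 library and 67 to 92 per GFP library.

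HMOX1 (ENSG00000100292, chromosome 22, 35380361 to 35394214, plus strand), the heme oxygenase induced by oxidants and heme, was at 18.74, 19.13 and 20.58 FPKM in GFP-812 libraries and at 17.65, 17.09 and 18.06 FPKM in GFP libraries. All 3 GFP-812 values lay above all 3 GFP values. The means were 19.5 ± 0.97 FPKM in GFP-812 cells and 17.6 ± 0.487 FPKM in GFP cells (SD, n = 3 each). The difference on the log2 scale was 0.16 (SE 0.0679, 95% interval 0.03 to 0.30). It did not pass (edgeR adjusted p = 0.198), nor in any of the 15 alternative fits (0.143 to 0.544).

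**Figure D2:**
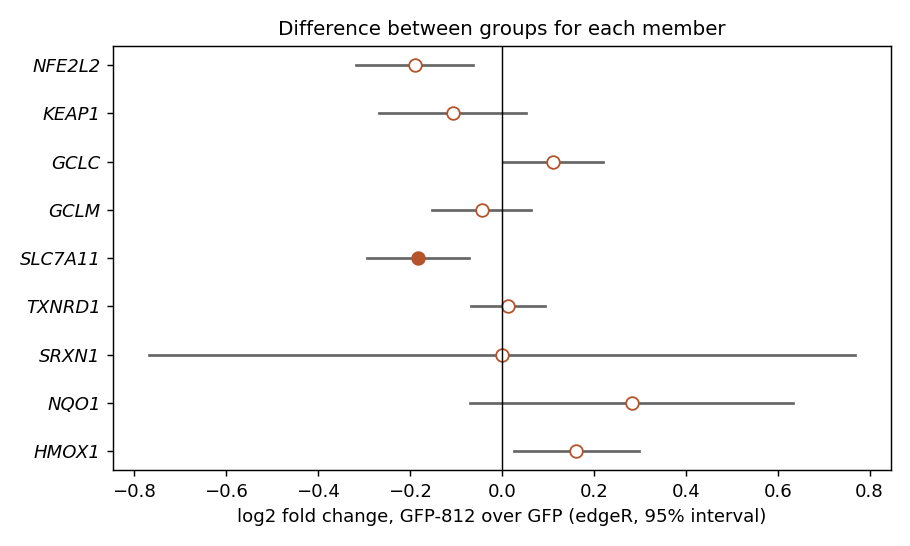
Log2 fold change, GFP-812 over GFP, of each gene (x axis) with its 95% interval from edgeR; the filled point passed an adjusted p under 0.05. SLC7A11 at -0.18 is the single filled point, TXNRD1 has the narrowest interval and SRXN1 the widest.

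The pattern of SLC7A11 over the 6 libraries was set beside that of the other 7006 tested genes with a mean of at least 5 FPKM. The 3 nearest, by the root mean square distance of log2 CPM (counts scaled to library size) centred on each gene's own mean, were LMBRD2 at 0.0404, UHRF1BP1 at 0.0439 and XRCC2, a recombination gene, at 0.0441; SLC7A11 itself varied by 0.122 about its mean on that scale. Their log2 fold changes were -0.22, -0.20 and -0.18. These distances describe the 6 libraries, and 7006 genes were searched for them.

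Among genes whose products regulate NRF2 or compete with it, BACH2 was lower in GFP-812 cells and the small MAF genes did not pass. Of 17 genes for regulators and partners 1 fell, 0 rose and 16 did not pass. Of the 17 log2 fold changes 13 were below 0, with a median of -0.04. An unadjusted edgeR p under 0.05 was found for 9 of the 17, against 16.1% of all genes tested. Among all genes tested 2.67% fell, 1.18% rose, 8106 of 16834 were below 0 and the median was 0.01. BACH2, a repressor that pairs with small MAF proteins, was at 1.44, 1.07 and 1.26 FPKM in GFP-812 libraries and at 1.62, 1.99 and 1.57 FPKM in GFP libraries. It was lower in every GFP-812 library and fell by 0.45 on the log2 scale (SE 0.111, edgeR adjusted p = 0.0094). Dropping replicate 2 of either group ended the call (-0.35, adjusted p = 0.181 for GFP-812 and -0.34, 0.129 for GFP), as did limma on log2(FPKM + 1) (-0.27, 0.269). That limma fit called 3 genes in the whole table, and DESeq2 gave no adjusted p for BACH2.

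RBX1, the RING subunit of the cullin ligase that KEAP1 serves, pointed the other way, at 18.65, 18.58 and 17.55 FPKM in GFP-812 libraries and 15.83, 16.08 and 16.21 FPKM in GFP libraries. Its log2 fold change of 0.20 missed the threshold (edgeR adjusted p = 0.0539). RBX1 passed with genes limited to a mean of at least 1 FPKM (0.21, 0.0364) or without GFP replicate 3 (0.21, 0.0456). With the replicate number as a block it passed too (0.20, 0.044). CUL3, the scaffold of the same ligase, had a log2 fold change of -0.10.

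The small MAF genes, singled out after their values were seen, encode the obligate partners of NRF2. MAFG was at 7.24, 6.68 and 6.76 FPKM in GFP-812 libraries and at 8.18, 7.91 and 7.84 FPKM in GFP libraries, and MAFK at 3.25, 3.28 and 2.85 FPKM in GFP-812 libraries and at 3.84, 3.74 and 4.15 FPKM in GFP libraries. MAFF, the least abundant, was at 0.4, 0.56 and 0.46 FPKM in GFP-812 libraries and at 0.68, 0.8 and 0.58 FPKM in GFP libraries. The groups were separate in either direction in 20.1% of all genes tested, and they were separate in these 3 genes too. In each of the 3 every GFP-812 library was below every GFP library. Their log2 fold changes were -0.20 for MAFG, -0.31 for MAFK and -0.52 for MAFF, and none passed (edgeR adjusted p = 0.106, 0.0839 and 0.231).

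**Figure D3:**
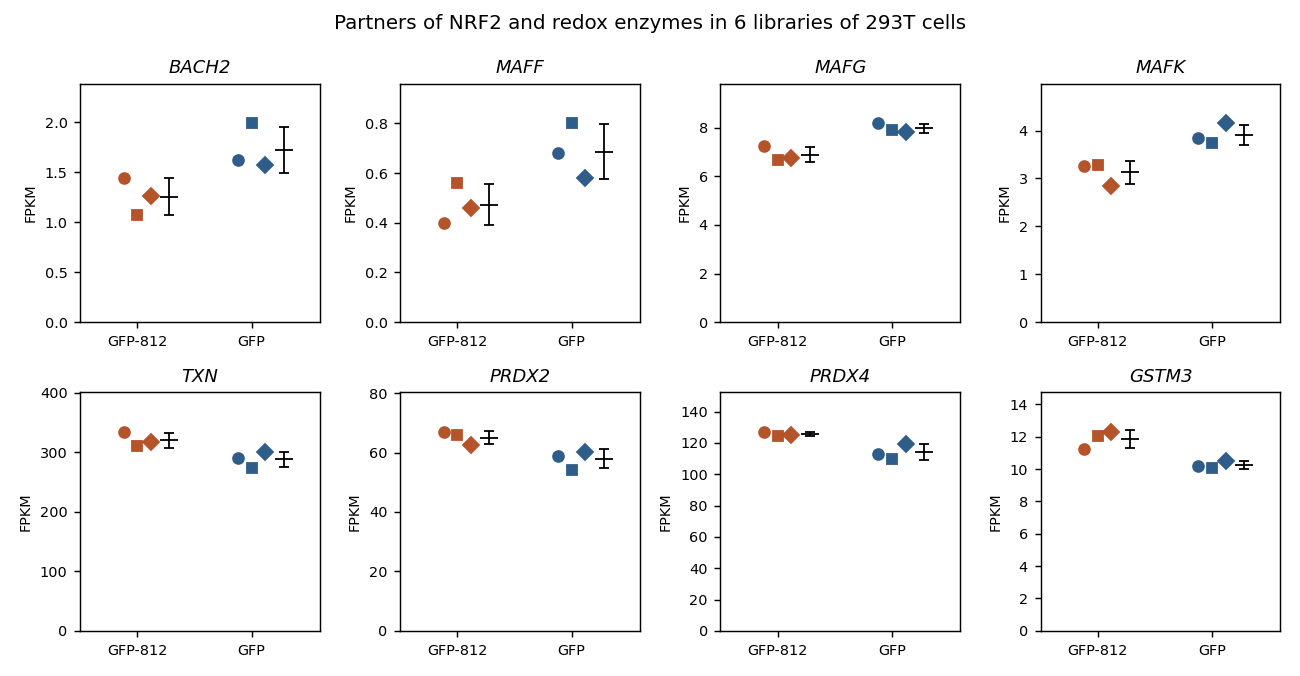
Level in FPKM (y axis, starting at 0) of BACH2 and the small MAF genes, above, and of thioredoxin, a pair of peroxiredoxins and GSTM3, below; circles, squares and diamonds are replicates 1, 2 and 3 and bars give the mean ± SD (n = 3). BACH2 and the MAF genes lie lower in all 3 GFP-812 libraries. TXN, PRDX2, PRDX4 and GSTM3 lie higher in all 3, with GFP replicate 3 the highest GFP library in each of these 4. Among all genes tested 20.1% have separate groups.

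Thioredoxin and the peroxiredoxins PRDX2 and PRDX4 were 1.11 to 1.13 times their GFP level in GFP-812 cells. Of 20 genes for thioredoxins, peroxiredoxins, glutaredoxins and methionine sulfoxide reductases 3 rose, 0 fell and 17 did not pass, with a median log2 fold change of 0.09 and 15 of 20 above 0. Among all genes tested 1.18% rose, the median was 0.01 and 8728 of 16834 were above 0. An unadjusted edgeR p under 0.05 was found for 9 of the 20, against 16.1% of all genes tested. TXN, cytosolic thioredoxin and the substrate of TXNRD1, was at 333.66, 309.57 and 316.75 FPKM in GFP-812 libraries and at 290.32, 274.08 and 299.72 FPKM in GFP libraries (log2 fold change 0.16, SE 0.0411, edgeR adjusted p = 0.0111). PRDX2, a cytosolic peroxiredoxin, was at 66.87, 65.76 and 62.44 FPKM in GFP-812 libraries and at 58.99, 54.27 and 60.33 FPKM in GFP libraries (0.18, adjusted p = 0.0216). PRDX4, the peroxiredoxin of the endoplasmic reticulum, was at 126.84, 124.26 and 125.12 FPKM in GFP-812 libraries and at 112.96, 109.53 and 119.52 FPKM in GFP libraries (0.15, adjusted p = 0.0277).

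In each of the 3 genes GFP replicate 3 was the GFP library nearest to the GFP-812 libraries; its part in the result was not tested beyond leaving it out. All 3 calls ended on dropping replicate 1 of GFP-812 (edgeR adjusted p = 0.15 for TXN, 0.137 for PRDX2 and 0.135 for PRDX4) or replicate 2 of GFP (0.0864 for TXN, 0.164 for PRDX2 and 0.133 for PRDX4). Dropping replicate 2 of GFP-812 ended those of PRDX2 (0.152) and PRDX4 (0.122). PRDX4 was lost as well on dropping replicate 3 of GFP-812 (0.0991) or replicate 1 of GFP (0.112). In these fits the log2 fold change of TXN was 0.13 in both, that of PRDX2 0.13 to 0.17 and that of PRDX4 0.12 to 0.16. Without GFP replicate 3 the list had 7 risen genes, and with limma on log2(FPKM + 1), which called 3 genes in the whole table, it had 0. PRDX1, the most abundant peroxiredoxin here, had a log2 fold change of 0.10 and did not pass (edgeR adjusted p = 0.159). Such abundant genes have processed pseudogenes that can share reads.

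Of 27 other glutathione genes 23 were tested, of which 1 rose, 0 fell and 22 did not pass, with a median log2 fold change of 0.04 against 0.01 for all genes tested, of which 1.18% rose. Of the 23, 4 had an unadjusted edgeR p under 0.05, against 16.1% of all genes tested. GSTM3, a glutathione transferase of the mu class, was at 11.21, 12.06 and 12.28 FPKM in GFP-812 libraries and at 10.16, 10.04 and 10.51 FPKM in GFP libraries. Its groups were separate, and its log2 fold change was 0.23 (SE 0.0626, edgeR adjusted p = 0.0261). Dropping replicate 2 or 3 of GFP-812 ended the call (adjusted p = 0.154 and 0.16), as did dropping replicate 1 or 2 of GFP (0.1 and 0.0889) and limma on log2(FPKM + 1) (0.139). The log2 fold changes on dropping these libraries were 0.22, 0.20, 0.22 and 0.21, and 0.19 with limma, which called 3 genes in the whole table. The genes of the mu class resemble one another in sequence, and their counts may be shared.

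Of 25 further NRF2 targets 21 were tested and 0 rose or fell in edgeR, with a median log2 fold change of 0.06. Of the 21, 3 had an unadjusted edgeR p under 0.05, against 16.1% of all genes tested. DESeq2, which gave an adjusted p for 13 of the 21, and limma on log2(FPKM + 1), which called 3 genes in the whole table, also called 0. TALDO1, an enzyme of the pentose phosphate pathway, was nearest to the threshold at 49.64, 49.21 and 49.45 FPKM in GFP-812 libraries and 44.53, 42.48 and 47.91 FPKM in GFP libraries (log2 fold change 0.15, edgeR adjusted p = 0.0601). FTL, the ferritin light chain, was at 307.02, 303.17 and 300.1 FPKM in GFP-812 libraries and at 282.39, 272.79 and 293.15 FPKM in GFP libraries (0.11, adjusted p = 0.108). Both passed without GFP replicate 3 (0.00293 and 0.0142). TALDO1 also passed with genes limited to a mean of at least 1 FPKM (0.16, 0.0382) and with the replicate number as a block (0.15, 0.0428). PGD and ME1, which produce NADPH, had log2 fold changes of 0.03 and 0.08.

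Of 9 genes for superoxide, peroxide and heme handling 8 were tested and 0 rose or fell in edgeR. Of these 8, 2 had an unadjusted edgeR p under 0.05, against 16.1% of all genes tested. DESeq2, which gave an adjusted p for 6 of the 8, called 0. Limma on log2(FPKM + 1), which called 3 genes in the whole table, also called 0. SOD1, cytosolic superoxide dismutase, was at 121.51, 124.24 and 127.83 FPKM in GFP-812 libraries and at 119.02, 111.43 and 123.36 FPKM in GFP libraries, an overlap through GFP replicate 3 (log2 fold change 0.09, edgeR adjusted p = 0.255; 0.12 and 0.0431 without that library). ALAS1, which starts heme synthesis, was at 27.55, 27.19 and 25.97 FPKM in GFP-812 libraries and at 30.63, 27.91 and 29.53 FPKM in GFP libraries (-0.11, adjusted p = 0.307). Over the 5 lists together, 4 of 98 genes rose, 1 fell, 84 did not pass and 9 were not tested. Of the 89 tested that is 4 risen and 1 fallen, beside 1.18% risen and 2.67% fallen among all genes tested. Of these 89, 27 had an unadjusted edgeR p under 0.05, against 16.1% of all genes tested.

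**Figure D4:**
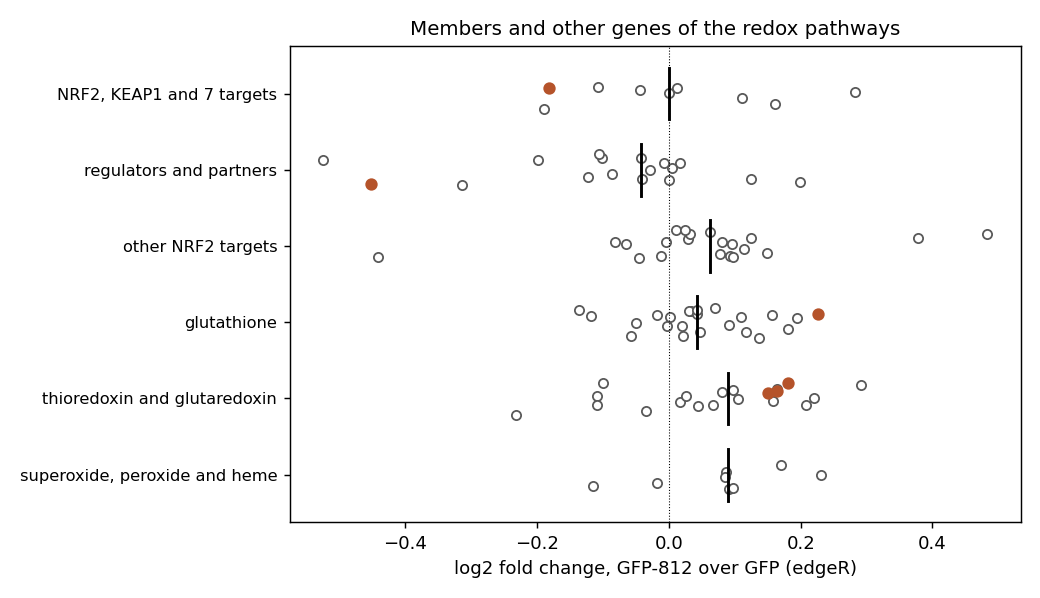
Log2 fold change, GFP-812 over GFP (x axis), of each tested gene, by list; filled points passed an edgeR adjusted p under 0.05 and the upright bar is the list's median. Filled points are SLC7A11, BACH2, GSTM3 and the group of TXN, PRDX2 and PRDX4, and most points of every list lie between -0.25 and 0.25.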

How the data were processed

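RNA-seq of poly(A) RNA was deposited for 3 GFP-812 and 3 GFP libraries. Per the submitters' processing notes, FastQC 0.10.1, cutadapt 1.9.1, HISAT2 2.2.1, HTSeq 0.6.1 and hg38 were used; the sources used here do not give the strand setting or annotation release. The authors deposited raw counts and FPKM per gene in 1 table, per the file headers; FPKM equalled count per exonic kilobase and 1000000 library counts for 100% of values within 0.0051. Groups come from the sample titles.

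The counts of the whole table were tested with edgeR 4.0.16 in R 4.3.3 (filterByExpr, TMM scaling, quasi-likelihood test, 2-sided, Benjamini-Hochberg, threshold 0.05), checked on simulated counts. Standard errors come from the fitted weights and the moderated dispersion. Alternatives were DESeq2 1.42.0, limma 3.58.1 on log2 FPKM with pseudocount 1 or 0.1, other scalings and filters, a replicate block, and fits without 1 library each.

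The 9 members and the lists were chosen with earlier results of these data known. Named were all 9 members, NEK1, and from each of 5 lists (98 genes) the genes called and the 2 of smallest p; the small MAF genes, and others given by a fold change alone, were added after their values were seen.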

Additional observations from a re-analysis of the deposited data

How the results depend on the processing

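The log2 fold changes of the 9 genes other than SRXN1 kept their sign in every alternative run. SRXN1, at 13 to 25 counts, ranged over -0.21 to 0.12 when a library was left out, turning positive on dropping replicate 1 (0.12) or 2 (0.06) of GFP-812 or replicate 2 of GFP (0.02). Members risen stayed at 0 in all 15 alternatives, but not all of these could show a rise. DESeq2 gave an adjusted p for 7 of the 9 members, not for SRXN1 or NQO1. Fits limited to a mean of at least 1 FPKM tested 8, and the limma fits called at most 3 genes in the whole table. Members fallen numbered 0 with DESeq2, at a mean of at least 1 FPKM and in the 3 limma fits, and 0 to 2 when a library was left out. Pathway genes risen numbered 7 at a mean of at least 1 FPKM and 0 in the limma fits (0 to 13 without a library), and pathway genes fallen 2 with total-count scaling and 0 in the limma fits (0 to 3 without a library). All genes called, 647, numbered 3, 2 and 1 with limma at pseudocount 1, at 0.1 and with no filter, and 209 to 1317 without a library. Deviations of same-numbered libraries from their group means were nearly uncorrelated over the tested genes (0.0318, -0.0102 and 0.00614). Counting noise can hold such correlations near 0, so whether replicate numbers pair the libraries was not settled. With the replicate number as a block, edgeR called 777 genes. That fit had 7 pathway genes risen, 1 pathway gene fallen and 1 member fallen (SLC7A11, adjusted p = 0.0223). The NFE2L2 to KEAP1 and GCLC to GCLM ratios kept their signs, at -0.16 to -0.01 and 0.11 to 0.20 without a library. SRXN1 and NQO1 rested on the fewest counts of the 9; the causes of the differences between settings were not tested.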
